A study of Mus musculus with 5 samples.

Results

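Cassette exons in genes of the splicing machinery and its relatives were examined: small nuclear ribonucleoprotein (Snrp), splice-site recognition (U2af, Luc7l), Prpf, DEAD-box and DEAH-box helicase (Ddx, Dhx), Rbm and Clk genes. A cassette exon is one that a transcript either holds or skips. Members were every exon event present in all 6 deposited tables whose gene symbol began with one of these names, which gave 69 of 6331 events under 47 symbols. U2af26 is another name of U2af1l4, so that gene appears under both. No event of a Sf3a or Sf3b gene met the rule. The files named the gene of 38 members, and the other 31 took the name of the annotated mouse gene with the same exon and intron lengths.

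Left ventricles of C57BL/6 mice aged 12 weeks were compared by RNA sequencing in 2 groups. STZ mice (3 samples) were injected with streptozotocin, a toxin of the insulin-producing beta cells, at 70 mg/kg for 5 days from 8 weeks of age. Control mice (2 samples) received citrate buffer alone on the same days. Psi, estimated by the authors with MISO, runs from 0 (every transcript skips the exon) to 1 (every transcript holds it). Libraries are called STZ A, STZ B and STZ C, and Control A and Control B. Which libraries belong to which group was taken from the group sizes, because the names in the tables match no sample title. The library names also fall into 2 series that split as the groups do, so the handling of the libraries and the treatment cannot be told apart for any exon. The labels do not say that each sample is a separate animal, and p-values measure the spread between these samples, which may be technical.

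The spliceosome removes introns with small nuclear ribonucleoproteins: U1 marks the 5′ splice site, U2 the branch point, and U2af the end of the intron, while RNA helicases drive each rearrangement. Rbm proteins and SR proteins, which Clk kinases phosphorylate, tune which exons are used. Many genes of this machinery carry a poison exon, whose inclusion, or an essential exon, whose skipping, brings a stop codon ahead of the last exon junction. Such transcripts are often removed by nonsense-mediated decay, so a measured Psi describes the transcripts that remain.

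Each stretch below runs up to and just past the stop codon, in capitals, that inclusion of the exon brings into the reading frame. They are shown because 4 of these 5 exons were included more in STZ, while that of Prpf39 did not pass the test. Bases come from GENCODE transcripts of the GRCm38 assembly matched on lengths, and coordinates are those of the whole exon in the deposited files (mm9).
Rbm7 poison exon, chr9:48302388-48302492, minus strand: tatttgaggcagagagccataTAGtat
Ddx50 110-nt exon, chr10:62110282-62110391, minus strand: tgtacttccctgatagggttgttaTGAaga
Rbm39 72-nt exon, chr2:155999833-155999904, minus strand: cttggaaagctctccatctccttgTGAttg
Rbm39 73-nt exon, chr2:156004616-156004688, minus strand: gattccagtgtgaactgtcaatcaTAAg
Prpf39 100-nt exon, chr12:66156421-66156520, plus strand: cgtccttccttacagaaactagtcTAGtgg
The Rbm7 stop codon begins at base 22 of its exon and the Ddx50 one at base 67. The Rbm39 72-nt exon and the Rbm7 poison exon are multiples of 3 in length, yet each holds a stop codon in frame, so length alone does not show whether an exon keeps a protein intact.

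Both Rbm5 exons that were skipped more in STZ are shown whole, because neither is a multiple of 3 and leaving either out shifts the reading frame.
Rbm5 61-nt exon, chr9:107658184-107658244, minus strand: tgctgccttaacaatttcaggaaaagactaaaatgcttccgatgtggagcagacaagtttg
Rbm5 85-nt exon, chr9:107652339-107652423, minus strand: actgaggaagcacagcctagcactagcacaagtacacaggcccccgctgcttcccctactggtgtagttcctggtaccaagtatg

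Of the 69 exons, 66 had at least 10 informative reads in every library, that is, reads that fit only the including or only the skipping isoform, and were tested by limma on the logit of Psi. An exon is said to have changed at an adjusted p under 0.05 over all 4769 exons tested. The test called 19 of the 66, or 28.8%, against 15% of all tested exons. It called 8 without STZ C, 9 without Control A or Control B, 10 without STZ A and 11 without STZ B. In STZ, 9 were included more and 10 less, and over all tested exons 4.84% were higher and 10.1% lower. That split depends on the setting: with Psi clipped at 0.05 it was 8 higher and 3 lower, and with a library left out it ran from 5 higher and 3 lower (without STZ C) to 7 higher and 4 lower (without STZ B). By the authors' rule, given further on, it was 4 higher and 3 lower. A change of at least 0.10 in Psi was reached by 13, of which 9 were higher and 4 lower in STZ, and 10.2% of all tested exons both passed and changed by this much. The STZ and Control values did not overlap for 39 of the 66, or 59.1%, against 42.9% of all tested exons. These exons had a median of 877.5 informative reads over the 5 libraries, against 692 for all tested exons. The median change was -0.00667 in Psi, against -0.01 over all tested exons.

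The changed exons can be sorted by what they do to the reading frame, and these counts were not planned beforehand. Where inclusion brings an early stop, meaning more than 50 nt before the last exon junction, 6 of 12 tested exons rose in STZ and 0 fell (limma). Over all tested exons of that kind, 13.3% rose and 5.67% fell. At an unadjusted limma p under 0.05, 7 were higher and 0 lower. No share over all exons is given for the unadjusted counts, here or below. In the read model 6 of the 11 fitted were higher and 0 lower. Among all such exons fitted, 124 of 310 passed that model in either direction. The 6 exons that rose in limma lie in 4 genes, Rbm7, Rbm39, Ddx50 and Luc7l, and 3 of them are in Rbm39. Where skipping brings an early stop, 4 of 23 fell and 1 rose, against 9.01% that fell and 1.84% that rose among all such exons. Of these 23, 4 were lower and 4 higher at an unadjusted limma p under 0.05. In the read model 3 of the 12 fitted were lower and 2 higher, so this class did not lean to 1 side in these counts. Among all such exons fitted, 141 of 486 passed the read model in either direction. Where skipping keeps the frame, 3 of 13 fell and 0 rose, against 11.6% that fell and 3.99% that rose among all such exons. Of these 13, 7 were lower and 0 higher at an unadjusted limma p under 0.05. In the read model 5 of the 7 fitted were lower and 0 higher. Among all such exons fitted, 387 of 1008 passed the read model in either direction. The 3 falls in limma, in Snrpd3, U2af1l4 and Ddx50, were all under 0.10 in Psi. All 6 changes of that size lost the call with Psi clipped at 0.05, and 1 or 2 of the 6 passed when a library was left out. So among the 11 changed exons with an early-stop isoform, 10 moved towards that isoform in STZ, or 90.9%, and over all tested exons 142 of 183 did, or 77.6%. Of these 10, the exon in Rbm6 had no skipping-only read in any library, and the one in Ddx42 lost its call with any library left out. Luc7l 71 nt, Rbm39 73 nt, Rbm39 239 nt and Rbm5 85 nt also lost the call with some libraries left out. Only the Rbm7 poison exon, Ddx50 110 nt, Rbm39 72 nt and Rbm5 61 nt passed whichever library was left out. Among the other spliceosome genes described at the end, 1 of 5 changed exons with an early-stop isoform moved towards it, or 20%, and 4 away from it. Whether these shares differ was not tested. With any 1 library left out, 4 or 5 of the 12 exons rose and 0 fell, a check chosen after the data were seen.

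**Figure D1:**
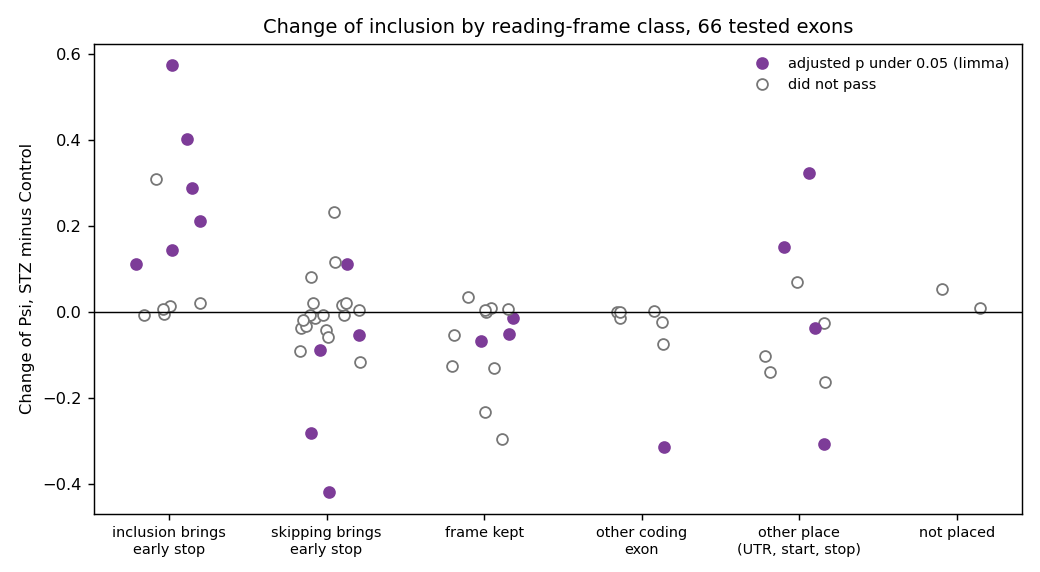
Change of Psi, STZ minus Control, of the 66 tested exons (vertical axis, fraction), grouped by the effect of the exon on the reading frame; filled points passed limma at an adjusted p under 0.05, open points did not, and points are spread sideways only to be seen. The 6 filled points where inclusion brings an early stop all lie above 0, and 4 of the 5 where skipping does lie below it.

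The STZ libraries were shallower, with 12692236 to 14913419 reads of all classes on the events, against 17154734 and 20963751 in Control. The median tested member had 167.5 to 180.5 informative reads in STZ libraries, against 144.5 and 187 in Control libraries. Markers also moved between the groups. Of 14 heart muscle marker genes, 5 had an event (Camk2d, Ldb3, Pln, Tnnt2 and Ttn), and reads on them came to 57090 to 69676 per 1000000 reads in STZ, against 101991 and 102868 in Control. Pecam1, the 1 of 4 endothelial markers with an event, had 3107 to 5332 on the same scale in STZ, against 1396 and 1548 in Control. The smooth muscle marker Myh11 (1 of 3) had 111 to 181 in STZ, against 49.6 and 56.4 in Control, and the leukocyte markers Cd68 and Ptprc (2 of 3) together 58.5 to 132 in STZ, against 70.6 and 82.3 in Control. The fibroblast marker Postn (1 of 5) had 14.2 to 52.4 in STZ, against 51.9 and 92.5 in Control, and 0 of 2 red cell markers had an event. Fewer cells of a type and less RNA per cell cannot be told apart in such bulk samples, and the part of these shifts and of depth in any exon below was not tested.

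**Figure D2:**
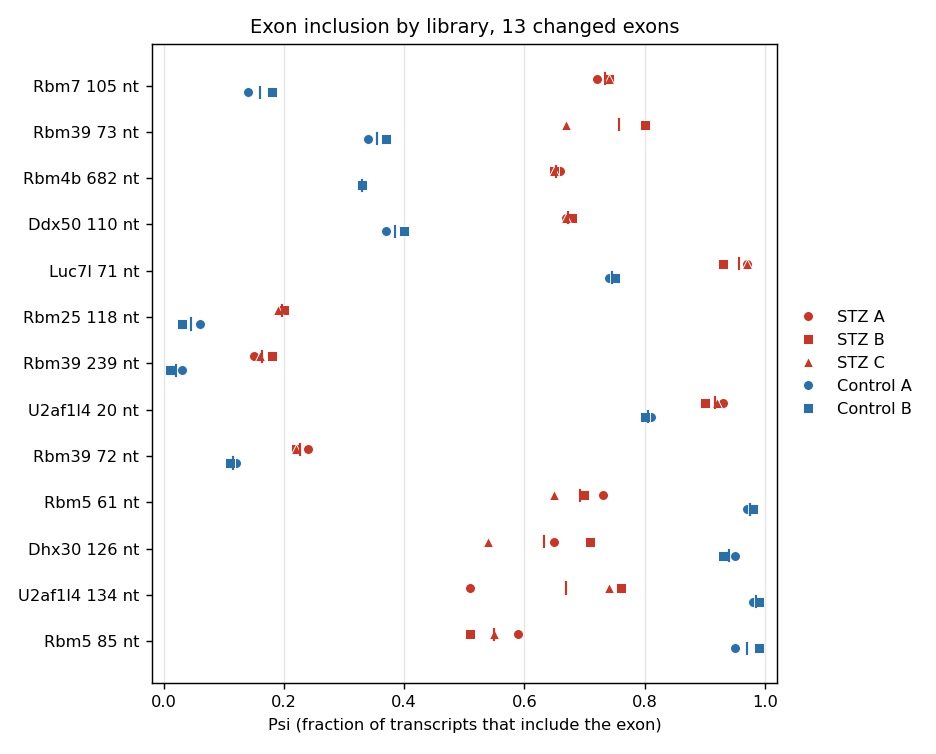
Psi (horizontal axis, fraction of transcripts that include the exon) in each library for the 13 exons that changed by at least 0.10, with STZ libraries in red and Control libraries in blue and a short line at each group's mean. In every one of the 13 exons the STZ and Control points are separate. Because the exons were picked by the test on these same values, this is no further support. The groups did not overlap for 42.9% of all tested exons.

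Among the snRNP proteins, 1 of 5 tested exons changed. The 54-nt exon of Snrpd3, a Sm core protein of spliceosomal particles, had a Psi of 0.98 in each STZ library, against 0.99 and 1 in Control A and Control B. That fall of 0.015 passed the test (limma adjusted p = 0.00417), in which the STZ values were identical and the clip at 0.99 made both Control values identical too. It did not pass with Psi clipped at 0.001 (limma adjusted p = 0.202) or at 0.05, and only 2 skipping reads were seen in all. The 193-nt exon of Snrpd3 had the most reads of this class among exons that did not pass, and its Psi was 1 in all 5 libraries. The 80-nt exon of Snrpa1, the U2 particle's A′ protein, had a Psi of 0.98, 0.91 and 0.96 in STZ, against 0.94 and 0.99 in Control, with groups that overlap (limma adjusted p = 0.738). The poison exon of Snrpa, the U1 particle's A protein, stayed at 0.01 to 0.02 in STZ and at 0 in Control, with 0 inclusion-only reads.

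In splice-site recognition genes, 4 of 8 tested exons changed. U2af1l4 is a relative of the small U2af subunit, which reads the end of the intron, and it carries 3 of the 4. Its 134-nt exon had a Psi of 0.51, 0.76 and 0.74 in STZ A, STZ B and STZ C, against 0.98 and 0.99 in Control. STZ A was the lowest, and the groups did not overlap. The mean was 0.67 ± 0.14 in STZ and 0.985 ± 0.0071 in Control (SD, n = 3 and 2), a change of -0.315 with a limma adjusted p of 0.0283. With any library but STZ A left out the call was lost, at adjusted p up to 0.129. Skipping-only reads numbered 28, 38 and 28 in STZ, against 1 and 1 in Control. Skipping of this exon was therefore all but unseen in Control, while 203 to 497 including-only reads remained in the STZ libraries. The 96-nt exon listed as U2af26, which keeps the frame, lies in the same gene and also fell. Its Psi was 0.93, 0.90 and 0.89 in STZ, against 0.97 and 0.98 in Control (limma adjusted p = 0.0376, but 0.15 with Psi clipped at 0.05). The call was lost with any library left out, at adjusted p up to 0.119 when that was an STZ library. Both events had the same number of reads in each library (5728, 7584 and 3769 in STZ, 2820 and 3450 in Control), so their falls cannot be taken as independent.

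The 20-nt exon of U2af1l4 moved the other way. Its Psi was 0.93, 0.90 and 0.92 in STZ, against 0.81 and 0.80 in Control, a change of 0.112 (limma adjusted p = 0.0338). With any library but STZ B left out the call was lost, at adjusted p up to 0.149. It rests on 0 skipping-only reads in each STZ library, against 3 and 4 in Control. A 50-nt version of the same exon had a Psi of 0.97, 0.97 and 0.99 in STZ, against 0.96 and 0.95 in Control, and did not pass in limma (adjusted p = 0.347). In the read model this version did pass, as higher in STZ. The pair share bases and are not independent. Skipping of either version brings an early stop, so the 20-nt exon is the 1 changed exon that moved away from an early-stop isoform.

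Luc7l proteins sit on the U1 particle and affect the choice of 5′ splice sites. The 71-nt exon of Luc7l had a Psi of 0.97, 0.93 and 0.97 in STZ, against 0.74 and 0.75 in Control, with no overlap. The change was 0.212 (limma adjusted p = 0.0391), and the call was lost with any library but STZ B left out, at adjusted p up to 0.168. Its reading frame meets a stop codon downstream of the exon. Of the reads on this event 86.8% to 90.4% in STZ, against 93.4% and 93.7% in Control, fit neither isoform, so the estimate rests on few of them. In Luc7l2, the well-covered 30-nt exon, which keeps the frame, had a Psi of 0.52, 0.50 and 0.45 in STZ, against 0.59 and 0.64 in Control. All STZ values lay below both Control values, but limma on Psi did not pass it (adjusted p = 0.0771), while the model of read counts did (adjusted p = 0.000257). The 84-nt exon of Luc7l2 lies in the 5′ UTR and had a Psi of 0.09, 0.15 and 0.06 in STZ, against 0.24 in both Control libraries. Its adjusted p was 0.129 in limma and 0.00158 in the read model. Reads that fit neither isoform made up 91.4% to 93.7% on this 84-nt event in STZ, against 97.4% in both Control libraries. The 45-nt exon of U2af2, the large U2af subunit that binds the polypyrimidine tract, had a Psi of 0.99 in every library. The 79-nt poison exon of Luc7l3 had too few informative reads to be tested, with Psi of 0.03, 0.02 and 0.01 in STZ, against 0.06 and 0.08 in Control.

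In Prpf genes, 0 of 4 tested exons passed in limma, 1 at an unadjusted p under 0.05 and 1 in the read model, in both cases that of Prpf39. Prpf39, whose yeast relative is a U1 protein, carries the poison exon shown above. Its Psi was 0.44, 0.59 and 0.59 in STZ, against 0.26 and 0.20 in Control, with no overlap. The change of 0.31 missed the threshold in limma (adjusted p = 0.0533) and passed it with array weights or without STZ A (0.0423 in each), with Psi clipped at 0.001 (0.0491) and in the read model (0.000232). Inclusion-only reads numbered 126, 166 and 161 in STZ, against 53 and 60 in Control, and skipping-only reads 31, 21 and 29 in STZ, against 33 and 49 in Control. As raw counts neither class overlapped between the groups, and the skipping-only counts lay closer together. These counts are not scaled to depth, and both Control libraries were deeper. The part of depth in the gap of skipping-only counts was not tested. The 53-nt and 54-nt poison exons of Prpf38b stayed at or below 0.09 in every library. The 28-nt exon of Prpf40b had 0 informative reads and was not tested.

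Among helicases of the spliceosome, 1 of 4 tested exons changed. Ddx42, a helicase bound to the U2 particle, lost inclusion of its 37-nt exon, with Psi of 0.93, 0.86 and 0.90 in STZ, against 0.99 and 0.98 in Control (change -0.0883, limma adjusted p = 0.0434). The call was lost with Psi clipped at 0.05 (adjusted p = 0.237) and with any library left out (up to 0.152). Skipping it shifts the frame. Skipping-only reads numbered 4, 5 and 1 in STZ, against 0 in both Control libraries. The 134-nt exon of Ddx17, a DEAD-box helicase that takes part in splicing, had a Psi of 0.97, 0.98 and 0.89 in STZ, against 0.98 and 0.99 in Control (limma adjusted p = 0.382), with 0 skipping-only reads in all. The 72-nt exon of Dhx35 likewise had no such read and Psi of 0.91, 0.91 and 0.96 in STZ, against 0.97 and 0.99 in Control (limma adjusted p = 0.163). The 59-nt poison exon of Ddx39, a relative of the mRNA export helicase, had a Psi of 0.13 to 0.15 in STZ, inside the 0.10 and 0.19 of the Control libraries.

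Of the helicases with other duties, 3 of 13 tested exons changed, and 2 of the 3 are in Ddx50, a nucleolar helicase. The 110-nt poison exon of Ddx50 had a Psi of 0.67, 0.68 and 0.67 in STZ, against 0.37 and 0.40 in Control. These values barely varied within a group, with means of 0.673 ± 0.0058 in STZ and 0.385 ± 0.021 in Control. The change was 0.288 (limma adjusted p = 0.00395; read model adjusted p = 3.11e-07). Inclusion-only reads were 722, 631 and 469 in STZ, against 189 and 254 in Control, while skipping-only reads were 198, 161 and 113 in STZ, against 154 and 218 in Control. Reads that fit neither isoform made up 30.2% to 33.1% in STZ and 32.6% and 36.0% in Control, so their share was similar in both groups. The 162-nt exon of the same gene, which keeps the frame, fell by 0.0517, with Psi of 0.92, 0.95 and 0.93 in STZ, against 0.98 and 0.99 in Control (limma adjusted p = 0.0494, but 0.532 with Psi clipped at 0.05 and up to 0.146 with a library left out).

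Dhx30, a helicase that serves mitochondrial RNA and ribosomes, has a 126-nt exon in its 5′ UTR. The Psi of this exon was 0.65, 0.71 and 0.54 in STZ, against 0.95 and 0.93 in Control (change -0.307, limma adjusted p = 0.0260). The counts behind it are thin, with 3, 0 and 2 skipping-only reads in STZ, against 0 and 1 in Control. The read model did not pass it (adjusted p = 0.177), and limma lost the call whichever library was left out. The other 10 exons of this class did not pass, with changes of Psi between -0.13 and 0.08. They include Ddx58 and Dhx58, sensors of viral RNA, Dhx37 and Ddx52, which act in ribosome assembly, and Dhx34, which acts in nonsense-mediated decay. The largest change among them was that of the 111-nt exon listed as Ddx26b, which the annotation names Ints6l, with Psi of 0.30, 0.19 and 0.23 in STZ, against 0.37 in both Control libraries (limma adjusted p = 0.148). The 194-nt exon of Dhx32 had the most reads, and its Psi of 0.95, 0.97 and 0.97 in STZ overlapped the 0.96 and 0.98 of Control. Reads that fit neither isoform made up 31.4% to 36.0% on this event in STZ, against 90.0% and 88.4% in Control.

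Rbm genes held 26 of the tested exons and 10 of the changed ones, of which 6 rose and 4 fell in STZ. The largest change of all was in Rbm7, which brings the nuclear RNA exosome to noncoding transcripts as part of the nuclear exosome targeting complex. Its poison exon, shown above, had a Psi of 0.72, 0.74 and 0.74 in STZ, against 0.14 and 0.18 in Control. The groups lay far apart, with means of 0.733 ± 0.012 in STZ and 0.16 ± 0.028 in Control, a change of 0.573 (limma adjusted p = 0.00395; read model adjusted p = 6.13e-09). Transcripts with the exon have an open reading frame of 117 nt, against 795 nt in the annotated coding sequence without it. Their stop lies 423 nt before the last exon junction.

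The read classes of Rbm7 show both sides of the change. Inclusion-only reads numbered 254, 237 and 295 in STZ, against 36 and 51 in Control. Skipping-only reads numbered 65, 48 and 55 in STZ, against 102 and 135 in Control. So most informative reads in STZ were of the including isoform, and most in Control were of the skipping isoform that codes for the protein. All reads that fit the event came to 87.5, 91.7 and 121 per 1000000 such reads in STZ, against 99.4 and 85.9 in Control, which overlap. Reads that fit neither isoform made up 45.1% to 48.5% in STZ, against 20.1% and 20.4% in Control, and which transcripts they come from was not tested. The 91-nt exon of Rbm7, farther downstream, had a Psi of 0.90, 0.92 and 0.85 in STZ, against 0.98 and 0.95 in Control, and did not pass (limma adjusted p = 0.126).

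Rbm39 is a U2af-related splicing factor that also acts as a transcriptional coactivator. All 3 of its exons bring an early stop when included, and all 3 rose in STZ. The 73-nt exon had a Psi of 0.80, 0.80 and 0.67 in STZ, against 0.34 and 0.37 in Control, a change of 0.402 (limma adjusted p = 0.0356). It rests on 7, 1 and 3 skipping-only reads in STZ, against 7 and 8 in Control, and the read model did not pass it (adjusted p = 0.138), nor did limma with any library but STZ C left out (adjusted p up to 0.155). The 72-nt exon had a Psi of 0.24, 0.22 and 0.22 in STZ, against 0.12 and 0.11 in Control, a change of 0.112 (limma adjusted p = 0.0105; read model adjusted p = 0.000289). It is the best counted by skipping reads, with 321, 230 and 169 in STZ, against 324 and 347 in Control. The 239-nt exon, whose stop codon spans its upstream junction, had a Psi of 0.15, 0.18 and 0.16 in STZ, against 0.03 and 0.01 in Control (limma adjusted p = 0.0370, up to 0.119 with an STZ library left out). Its inclusion-only reads were 90, 96 and 82 in STZ, against 15 and 5 in Control. Reads fitting neither isoform were 61.0% to 63.9% on this event in STZ, against 29.3% and 26.8% in Control. None of the 3 exons overlapped between groups, and the 72-nt and 239-nt exons stayed minor in both groups.

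Rbm5 is a splicing regulator whose relatives are Rbm6 and Rbm10, and it lost inclusion of both exons shown above. The 85-nt exon had a Psi of 0.59, 0.51 and 0.55 in STZ, against 0.95 and 0.99 in Control, the largest fall among these genes at -0.42 (limma adjusted p = 0.0366, up to 0.119 with an STZ library left out). The 61-nt exon had a Psi of 0.73, 0.70 and 0.65 in STZ, against 0.97 and 0.98 in Control, a change of -0.282 (limma adjusted p = 0.00856). Both were nearly always included in Control. Skipping-only reads of the 61-nt exon numbered 15, 13 and 12 in STZ, against 1 and 0 in Control, and those of the 85-nt exon 3, 7 and 7 in STZ, against 1 and 0 in Control. Reads that fit neither isoform were of a like share on the 61-nt event, at 13.5% to 16.2% in STZ and 14.8% and 14.0% in Control. Skipping of either exon places a stop codon in the next exons, 1607 nt before the last junction for the 61-nt exon and 848 nt for the 85-nt exon. The 74-nt exon of Rbm5, with over 98% of its reads fitting neither isoform in every library, had a Psi of 0.92, 0.88 and 0.90 in STZ, against 0.92 in both Control libraries.

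Rbm6 shows how a call can arise without skipping reads. Its 1279-nt exon and its 1550-nt version, which overlap, fell, with changes of -0.0533 and -0.0367 in Psi (limma adjusted p = 0.0243 and 0.0386). Both calls were lost with Psi clipped at 0.05 (0.131 and 0.0602) and without Control A or Control B (up to 0.122 and 0.169). Psi of the 1279-nt exon was 0.90, 0.93 and 0.92 in STZ, against 0.97 in both Control libraries. Neither version had a single skipping-only read in any library. Reads that fit neither isoform made up 9.42% to 11.9% for the 1279-nt exon in STZ, against 42.8% and 42.5% in Control. The 231-nt exon of Rbm10, which keeps the frame, had a Psi of 0.06, 0.09 and 0.05 in STZ, within reach of the 0.07 and 0.05 in Control (limma adjusted p = 0.903).

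The exon listed as Rbm4b, of 682 nt, had a Psi of 0.66, 0.65 and 0.65 in STZ, against 0.33 in both Control libraries. The change was 0.323 (limma adjusted p = 0.00118; read model adjusted p = 9.49e-07), and it is the exon with the smallest limma p of these genes. Skipping-only reads numbered 40, 45 and 39 in STZ, against 192 and 248 in Control. Its lengths match the near-identical neighbour Rbm4, and reads of these paralogs may be split between them, so the gene is uncertain. The matched exon holds the end of the coding sequence, and Rbm4 proteins are splicing regulators with known roles in muscle cell differentiation.

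Rbm25 is a U1-associated regulator of splice-site choice. Its 118-nt exon had a Psi of 0.20, 0.20 and 0.19 in STZ, against 0.06 and 0.03 in Control, a change of 0.152 (limma adjusted p = 0.0319, up to 0.109 with an STZ library left out; read model adjusted p = 0.000153). Inclusion-only reads were 90, 67 and 62 in STZ, against 24 and 20 in Control. Reads that fit neither isoform made up 83.1% to 87.6% in STZ, against 68.2% and 59.1% in Control. The annotated transcript with this exon is a fragment, so its effect on the frame was not assigned. None of the other 4 exons of Rbm25 passed, and the 54-nt and 58-nt coding exons were at 0.99 to 1 in every library. The 74-nt poison exon of Rbm25 was at 0.01 or 0.02 throughout, so the early-stop exons did not all rise.

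The remaining Rbm exons did not pass. Rbm34, a nucleolar protein, had the largest such change, in a 60-nt exon that keeps the frame, with Psi of 0.16, 0.12 and 0.26 in STZ, against 0.53 and 0.42 in Control (change -0.295, limma adjusted p = 0.083; read model adjusted p = 0.00564). The 72-nt exon of Rbm26, a protein of another nuclear exosome adaptor, had a Psi of 0.67, 0.61 and 0.78 in STZ, against 0.89 and 0.95 in Control (limma adjusted p = 0.0771; read model adjusted p = 0.00591). In both, the groups did not overlap. The 55-nt exon of Rbm38, which binds the mRNA of the cell-cycle inhibitor p21, had the most reads and a Psi of 0.98 to 0.99 in STZ, against 1 in Control. The 49-nt event listed as Rbm12 lies in a 5′ UTR that the annotation gives to Cpne1, with Psi of 0.10, 0.25 and 0.24 in STZ, against 0.27 and 0.45 in Control (limma adjusted p = 0.349).

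Clk kinases phosphorylate SR proteins, and skipping of exon 4 of Clk1 or Clk4 shifts the frame ahead of the kinase domain. In limma 0 of their 6 tested exons passed, 3 were higher in STZ at an unadjusted p under 0.05, and 0 passed in the read model. The 91-nt exons of Clk1 and Clk4 are the fourth of 13 exons in both genes and share 85 of 91 bases (93.4%), so reads could be assigned to the wrong gene. Capitals mark the bases that differ.
Clk1 91-nt exon, chr1:58476965-58477055, minus strand: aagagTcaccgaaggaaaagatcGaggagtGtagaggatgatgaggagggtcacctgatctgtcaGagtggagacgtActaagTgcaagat
Clk4 91-nt exon, chr11:51086580-51086670, plus strand: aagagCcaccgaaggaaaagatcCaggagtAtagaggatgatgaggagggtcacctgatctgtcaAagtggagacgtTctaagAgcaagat
The Clk4 exon had a Psi of 0.61, 0.73 and 0.66 in STZ, against 0.44 and 0.43 in Control, a change of 0.232 that missed the threshold (limma adjusted p = 0.0539, and 0.0449 with array weights). The Clk1 exon had a Psi of 0.31, 0.39 and 0.42 in STZ, against 0.52 and 0.41 in Control, with groups that overlap (limma adjusted p = 0.365). The 97-nt exon of Clk3, also the fourth of 13, had a Psi of 0.93, 0.89 and 0.94 in STZ, against 0.82 and 0.79 in Control (limma adjusted p = 0.072). All STZ values were above both Control values in Clk3 and Clk4. Reads that fit neither isoform made up 62.9% to 75.2% on the Clk4 exon in STZ, against 86.2% and 87.1% in Control. The 161-nt exon of Clk4 was at 0.97 to 0.98 in STZ and at 0.95 and 0.96 in Control, the 59-nt exon of Clk4 at 0.19 to 0.25 in STZ and at 0.15 and 0.17 in Control, and the 91-nt exon of Clk3, which is exon 12 and unrelated in place, at 0.99 throughout.

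**Figure D3:**
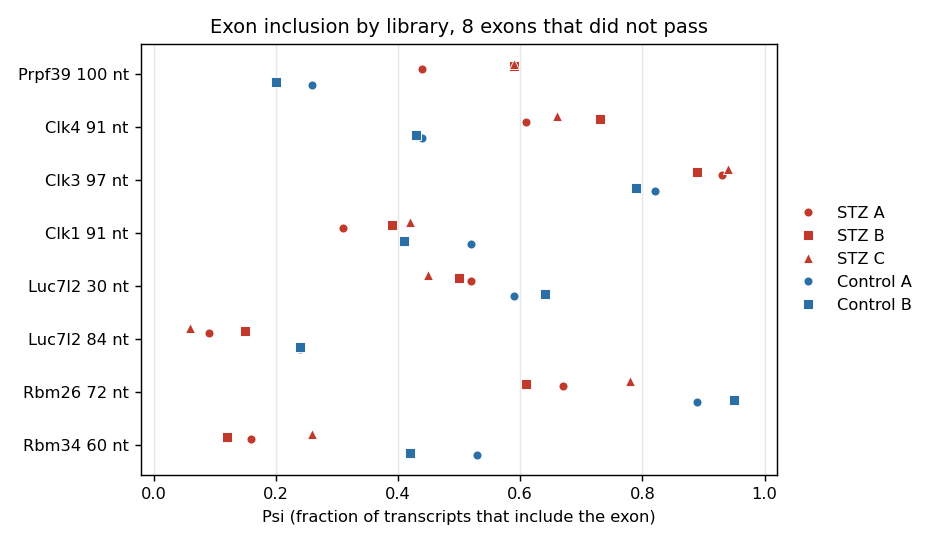
Psi (horizontal axis, fraction of transcripts that include the exon) in each library for 8 exons that did not pass limma at an adjusted p under 0.05; STZ libraries are red and Control libraries blue. In the Clk1 exon the groups overlap, and in the other 7 the STZ points lie on 1 side of the Control points. The 8 were picked for a large change, for many reads or after their values were seen. They therefore do not stand for all 47 exons that did not pass. The groups did not overlap for 39 of the 66 tested exons and for 42.9% of all tested exons.

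Psi and the plain share of inclusion-only among informative reads did not always change alike. The plain share takes no account of isoform length. For the Rbm7 poison exon it was 0.824 in STZ and 0.268 in Control, a difference near that of Psi. For Rbm5 85 nt it was 0.907 in STZ and 0.997 in Control, for U2af1l4 134 nt 0.906 in STZ and 0.997 in Control, and for Rbm39 73 nt 0.932 in STZ and 0.823 in Control, each a smaller difference than that of Psi. For Rbm25 118 nt it was 0.645 in STZ and 0.257 in Control, a larger one. Of the 19 changed exons, the share moved in the direction of Psi in 17, and by less than Psi in 16. In the read model, fitted to the 44 members with at least 5 reads of each class, 21 passed, against 34.7% of all exons so fitted, and 14 passed in both. By the authors' deposited tables, 7 of the 69 differed by 0.20 or more in 1 direction with Bayes factors of 10 or more in every one of the 6 comparisons, against 3.22% of all events.

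**Figure D4:**
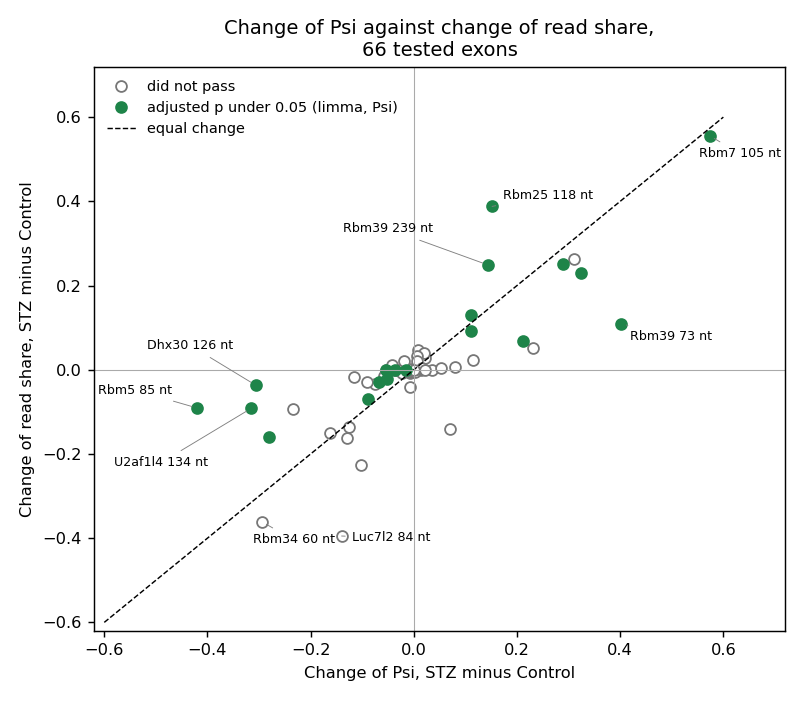
Change of Psi (horizontal axis) against change of the share of inclusion-only among informative reads (vertical axis), both STZ minus Control, for the 66 tested exons; filled points passed limma and the dashed line marks equal change. The Rbm7 poison exon lies near the line at 0.573, while Rbm5 85 nt, U2af1l4 134 nt and Rbm39 73 nt lie nearer the horizontal line at 0 than the dashed line.

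**Figure D5:**
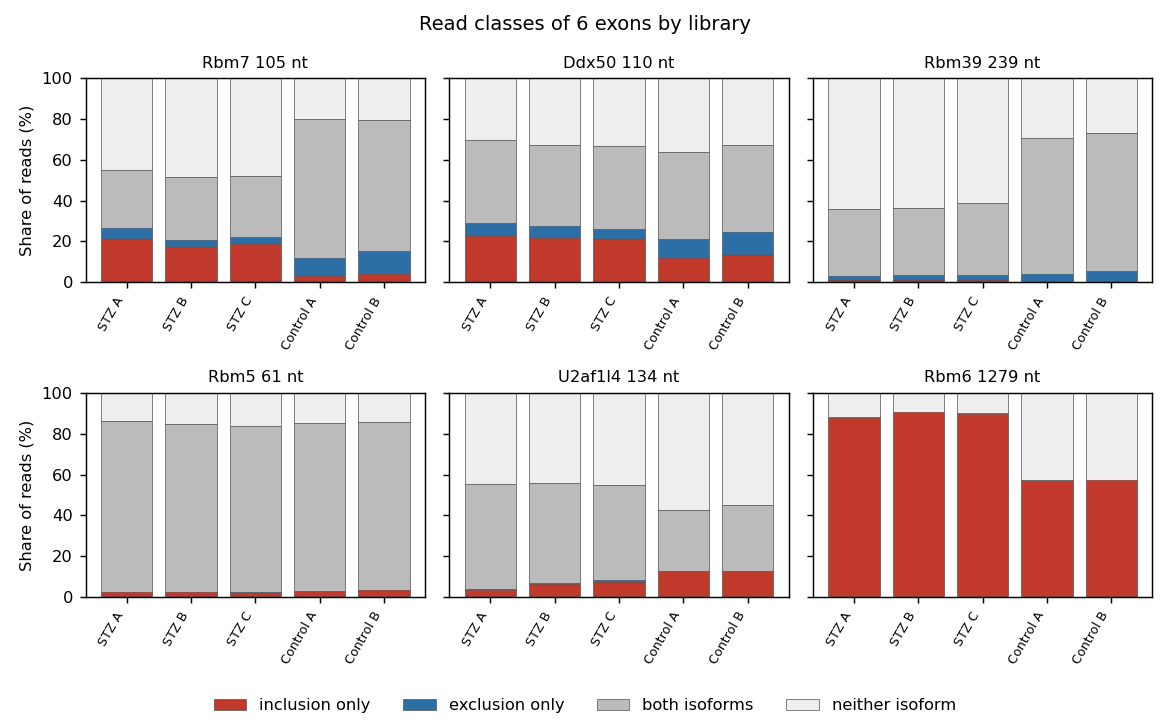
Share of reads (percent) in each library by class (inclusion only, skipping only, both isoforms, neither isoform), for 6 exons, with the 3 STZ libraries left of the 2 Control libraries. In Rbm7 and Rbm39 239 nt the neither class is larger in every STZ library, in Rbm6 and U2af1l4 it is smaller, and in Ddx50 and Rbm5 61 nt it is similar.

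Other genes of the spliceosome and its partners, a list of 120 symbols, had 60 events, of which 48 in 36 genes were tested. The test passed 11 of these, or 22.9%, with 3 higher and 8 lower in STZ, against 15% of all tested exons, with 4.84% higher and 10.1% lower. Among those that passed, the exons with the largest rises were in Rsrc1 and Ccar1, and those with the largest falls in Thrap3 and Slu7. Rsrc1 encodes an arginine- and serine-rich protein, and its 153-nt exon had a Psi of 0.95, 0.94 and 0.93 in STZ, against 0.77 and 0.70 in Control (limma adjusted p = 0.0168). Ccar1 encodes a regulator of the cell cycle and apoptosis, and its 211-nt exon had a Psi of 0.94, 0.96 and 0.96 in STZ, against 0.82 and 0.88 in Control (limma adjusted p = 0.0470). Thrap3 is an SR-related protein, and its 88-nt exon had a Psi of 0.35, 0.46 and 0.40 in STZ, against 0.71 and 0.72 in Control (limma adjusted p = 0.0233). Slu7 acts in the second step of splicing, and its 79-nt exon had a Psi of 0.17, 0.12 and 0.10 in STZ, against 0.35 and 0.43 in Control (limma adjusted p = 0.0386). With Control A or Control B left out, 0 of the 48 passed in limma, where 14 and 15 had an unadjusted p under 0.05, while 13 passed in the read model of all libraries.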

How the data were processed

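The submitters' processing notes name CASAVA 1.8.2, TopHat and the mm9 build. Psi is a fraction deposited by the authors, a MISO posterior mean to 2 decimals, per the file headers. Read class counts, of a unit recorded as other, were deposited by the authors for each library, and so was the Bayes factor, a ratio per the file headers. The sources used here do not give MISO's version or event annotation. The 36 per-library columns of credible bounds and of reads assigned to isoforms were not used. Values of a library did not differ between tables (0 differences).

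Psi was clipped to 0.01 to 0.99 and its logit fitted in limma 3.58.1 (R 4.3.3), STZ against Control, two-sided, with a prior variance trended on log2 mean informative reads, and Benjamini-Hochberg adjustment over 4769 exons. A quasi-binomial model of inclusion-only and skipping-only reads, with limma's moderation of the dispersion, served as an alternative. Both were checked on simulated data. SDs are over 3 STZ and 2 Control libraries. Frames were read from GENCODE transcripts (GRCm38) matched on lengths, since an mm9 sequence was not used here; coordinates are mm9, from 1. The Clk4 59-nt and Snrpn exons could not be placed. Precision is limited by the number of informative reads per exon and by the 5 libraries.

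The exons named were those that passed with a change of at least 0.10, the Rbm7 exon, in each role the uncalled exon with most reads and the one with the largest change, and, among exons of other spliceosome genes that passed, the 2 largest rises and falls. Further exons are named as examples after their values were seen. The result of 1 exon that the rule names is not reported here. The members and lists were chosen with earlier results of these data known.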

Additional observations from a re-analysis of the deposited data

How the results depend on the processing

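The alternatives were a minimum of 20 informative reads or none, other clips of Psi, 1 prior variance for all exons, array weights, the read model, and each library left out. For counts they were also the authors' rule, gene names from the files alone, and 1 event per group of overlapping exons. With 1 event per such group, 16 of the splicing-gene exons passed, 8 higher and 8 lower in STZ. Over all exons 713 passed, against 1099 in the read model, 204 by the authors' rule and 282 to 466 with a library left out. Of the 66 exons 19 passed, against 11 with Psi clipped at 0.05, 7 by the authors' rule, 7 of the 36 tested exons that the files themselves name (19.4%), and 8 to 11 with a library left out (8 without STZ C, 9 without Control A or Control B, 10 without STZ A and 11 without STZ B). Of the other spliceosome genes 11 passed, against 0 to 7 with a library left out. The count of 6 rising exons where inclusion brings an early stop became 4 to 5 with a library left out and 4 to 8 over all alternatives. The median change of Psi of -0.00667 ran from -0.0133 to 0 with a library left out and was 0 as a plain read share and -0.00833 with no filter on reads.

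The Rbm7 poison exon, Ddx50 110 nt, Rbm4b 682 nt, Rbm5 61 nt and Rbm39 72 nt passed in all 12 alternatives. Among the other exons that changed by at least 0.10, the following lost the call with a library left out, with adjusted p up to the value given: Rbm5 85 nt (0.119), Rbm25 118 nt (0.109) and Rbm39 239 nt (0.119) when any STZ library was left out, U2af1l4 134 nt (0.129) when any but STZ A was, Rbm39 73 nt (0.155) when any but STZ C was, Luc7l 71 nt (0.168) and U2af1l4 20 nt (0.149) when any but STZ B was, and Dhx30 126 nt when any was. Dhx30 126 nt (0.177) and Rbm39 73 nt (0.138) also lost it in the read model, and Rbm39 73 nt and U2af1l4 134 nt with Psi clipped at 0.05, as did all 6 exons that changed by less than 0.10. Calls were gained by Rbm38 55 nt with Psi clipped at 0.001 (0.0154), and by others, Prpf39 100 nt and Clk4 91 nt among them, at the values given above. The direction turned for Snrpa1 80 nt, which ran from -0.04 to 0.01 with a library left out (0.005 without STZ B, 0.01 without Control B), for Dhx32 194 nt, which ran from -0.0167 to 0.00333 (without Control B), and for Clk4 161 nt, at -0.000893 in the read model. The cause was not tested. No paired analysis was possible because the columns carry none of the replicate numbers of the labels.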

Other observations

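Reads that fit either isoform, per 1000000 such reads, describe how much of each event was sequenced, and a few events were chosen for this after their values were seen, with no test. The 134-nt event of U2af1l4 had 418.5, 552.1 and 306.6 in STZ, against 130.9 and 136.4 in Control, so more of this region was read in every STZ library. The 134-nt event of Ddx17 went the other way, with 38.3, 16.9 and 21.5 in STZ, against 107.6 and 117.7 in Control, while its Psi did not pass. Rbm4b 682 nt had 130, 101 and 103 in STZ, against 208 and 220 in Control. The Rbm5 events differed from each other: the 85-nt one had 10.1, 10.3 and 11.4 in STZ, against 23.3 and 22 in Control, and the 61-nt one 479, 344 and 356 in STZ, against 501 and 441 in Control.

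Among the other spliceosome genes, the exons whose inclusion brings an early stop that passed fell, and Ccar1 211 nt, whose skipping brings one, rose. Magohb 59 nt, whose skipping also brings one, went the other way and fell. Its Psi was 0.94, 0.90 and 0.93 in STZ, against 0.99 and 1 in Control (limma adjusted p = 0.0159), with 0 skipping-only reads in all. Bclaf1 162 nt, in a gene related to Thrap3, had a Psi of 0.10, 0.09 and 0.12 in STZ, against 0.35 and 0.28 in Control. Snrnp70 1360 nt, in the gene of the U1 70K protein, had a Psi of 0.17, 0.20 and 0.21 in STZ, against 0.31 and 0.35 in Control. Srrm2 95 nt had 0.05, 0.04 and 0.05 in STZ, against 0.11 and 0.09 in Control. These exons of Bclaf1, Snrnp70 and Srrm2 were all lower in STZ (limma adjusted p = 0.0209, 0.0346 and 0.0309). They were picked after their values were seen.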
